A study of Homo sapiens with 4 samples.

Results

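Developmental transcription factors of the FOX, SOX, GATA, KLF, HOX, PAX, TBX, NKX, LHX, MEIS, PBX, HAND, MSX and DLX families and of the sine oculis family (SIX2, SIX4 and SIX5) were followed in A549 cells, a human lung adenocarcinoma line, with and without overexpression of the microRNA gene let-7a-3. The members were all gene symbols of these families that the platform annotation gives as the 1 symbol of a probe. FOXA1, FOXA2, NKX2-1 and GATA6 were left out of the group. This gave 116 of 12483 measured genes, read by 182 of 26629 probes. Of the 116 symbols 112 are protein-coding genes and 4 are long non-coding RNAs named after a neighbouring factor (FOXL3-OT1, FOXN3-AS1, FOXP1-AS1 and NKX2-1-AS1). The FOX symbols were the most numerous (27), followed by SOX (15), KLF (13) and TBX (12). There were also 7 PAX, 7 HOXD, 6 HOXB, 6 DLX, 5 NKX, 4 GATA, 4 LHX, 4 MEIS or PBX and 3 sine oculis symbols, with 1 each of HAND, MSX and HOXC. No HOXA gene was analysed here.

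Each of 4 two-colour cDNA arrays carried RNA of a let-7a-3 transfected A549 culture in 1 channel and RNA of a parental A549 culture in the other, and is given here as array 1 to 4. All cultures grew in DMEM with fetal calf serum and had no other treatment, and total RNA was amplified with T7 RNA polymerase before labelling. A dye swap gave arrays 1 and 3 one orientation and arrays 2 and 4 the opposite one. The arrays are labelled as replicates, and whether the transfected cultures derive from 1 clone or from several is not stated. The control was the parental line and not a line carrying an empty vector.

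The factors of these families bind DNA through a domain shared within the family, such as a forkhead, an HMG box, a pair of zinc fingers, Krüppel-type zinc fingers, a homeodomain, a paired domain or a T-box. They set cell identity and body pattern in the embryo, and many stay active in adult epithelium, where FOX, SOX, KLF and TBX genes take part in lung growth and repair. Let-7 is a microRNA family that rises as cells differentiate and represses messages with sites complementary to its seed.

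The mature strands of let-7a-3 are shown because this is the gene that was overexpressed. Whether either strand rose was not tested. The strands are from RefSeq (GRCh38.p14, plus strand), with the seed (bases 2 to 8) in capitals. The first was read from chr22:46112752-46112773 and the second from chr22:46112800-46112820. No sequence was searched for sites of this seed.
hsa-let-7a-5p: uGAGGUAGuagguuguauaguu
hsa-let-7a-3p: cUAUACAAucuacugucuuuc

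All values are log ratios as deposited. Neither their logarithm base nor their numerator is stated, so no fold is given, and with the sign turned every positive value would be negative. It is likewise not stated whether swapped arrays were inverted by the authors. Each value is therefore described as 2 components: the shared component, which is the mean of the 4 arrays, and the alternating component, which changes sign with the dye orientation and is given with the sign of arrays 1 and 3. Which of them holds the let-7a-3 effect is not settled by the labels. Errors are standard deviations (SD) over the 4 arrays, turned to 1 orientation for the alternating component, and adjusted p-values come from limma, adjusted by Benjamini-Hochberg across the whole table of probes or of genes, called under 0.05. Values of a gene with several probes are means over its probes. Where an array is left out, the fit weights both dye orientations equally, so the shared component is then the average of the 2 orientation means and not the mean of the 3 arrays kept.

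Among the 116 genes the values lay close to 0 in both components. The median of the shared component was 0.010 over the members and 0.0069 over all genes, and the median size, whatever the sign, was 0.042 over the members and 0.045 over all genes. Only 2 members had a size over 0.2 in the shared component (1.72%, against 4.09% of all genes), and both were KLF genes. Member genes with a positive value numbered 64 and those with a negative value 52, against 6762 and 5721 of all 12483 genes. In the alternating component the median was 0.0027 over the members and -0.0081 over all genes. There 2 members exceeded a size of 0.2 (1.72%, against 4.75% of all genes).

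**Figure D1:**
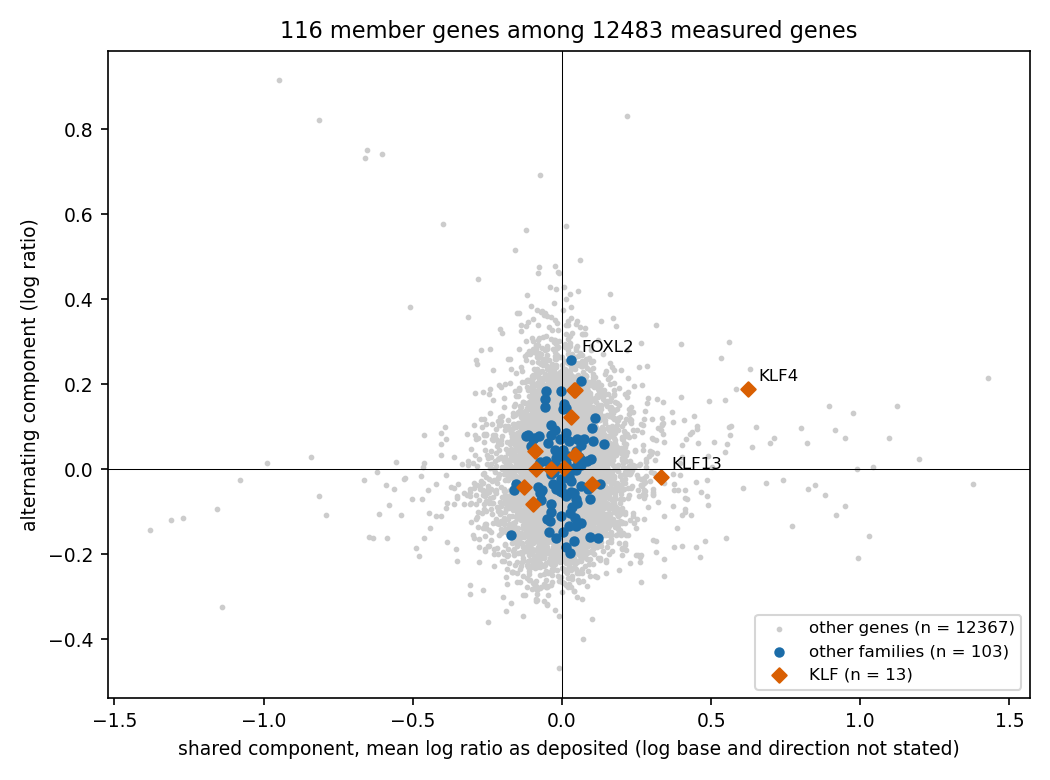
Shared component (horizontal axis) and alternating component (vertical axis) of each gene, as log ratios of unstated base. Grey points are the genes outside the families, blue points the 103 members outside the KLF family and orange diamonds the 13 KLF genes; KLF4 (0.62) and KLF13 (0.33) stand to the right of the other members and FOXL2 (0.26) above them.

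In the shared component 2 of 116 member genes passed, KLF4 and KLF13, both with positive log ratios. Of all genes 3.04% passed in either direction and 1.63% with a positive value, against 1.72% of the members in each case, so the share of members lay near or below the background. At the probe level 3 of 182 member probes passed, all positive, against 2.07% of all probes in either direction and 1.12% in the positive one. No member gene passed with a negative value, against 1.41% of all genes, and no member probe, against 0.946% of all probes. In limma 13 member genes (11.2%) had an unadjusted p under 0.05 in either direction, against 14.6% of all genes, and 16 member probes (8.79%), against 12.5% of all probes. The same sign on all 4 arrays was seen in 14 member genes (12.1%, against 15.8% of all genes) and 24 member probes (13.2%, against 14.1% of all probes). The count of called member genes was 12 without array 3, where 11.8% of all genes passed, and 4 without array 1, where 6.39% passed. The count of called member probes was 5 without array 3, where 3.32% of all probes passed, and 1 without array 2, where 1.02% passed.

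KLF4, a zinc finger factor of epithelial barrier and differentiation genes and 1 of the factors that reprogram cells to pluripotency, had log ratios of 0.60, 0.37, 1.02 and 0.50 on arrays 1 to 4. All 4 arrays were positive, and both values of arrays 1 and 3 lay above those of arrays 2 and 4. The mean was 0.62 ± 0.28 (SD, n = 4; limma adjusted p = 0.00232 over genes and 0.00157 over probes), read by 1 probe. Its alternating component was 0.19 and did not pass (limma adjusted p = 0.14 over genes). The shared component lay between 0.52, with array 3 left out, and 0.73, with array 1 left out, and KLF4 passed in all 4 such fits.

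KLF13, a factor that binds GC-rich boxes and recruits the corepressor SIN3A, was read by 2 probes that both passed. The first had log ratios of 0.22, 0.26, 0.43 and 0.34 on arrays 1 to 4, with a mean of 0.31 ± 0.091 (SD, n = 4; limma adjusted p = 0.0211). The second had 0.24, 0.45, 0.36 and 0.35, with a mean of 0.35 ± 0.085 (SD, n = 4; limma adjusted p = 0.00791). All 8 values were positive. Averaged over both probes KLF13 stood at 0.33 ± 0.069 (SD, n = 4; limma adjusted p = 0.00636), with an alternating component of -0.019. Without array 2 neither probe passed (limma adjusted p = 0.0836 and 0.0798), and without array 4 the first did not (0.158), while the gene mean passed in all 4 fits that left out an array, with a shared component between 0.29 and 0.37. Without the dye term the first probe did not pass (limma adjusted p = 0.0712). Without moderation of the variances neither KLF4 nor KLF13 passed (limma adjusted p = 0.423 and 0.372).

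The bases upstream of KLF4 and KLF13 are shown because these are the called members, from RefSeq (GRCh38.p14). KLF4 was read from chr9:107489770-107490019 on the minus strand and KLF13 from chr15:31326585-31326834 on the plus strand, 250 bases that end before the transcription start. Capitals mark the GC box (GGGCGG or its reverse CCGCCC) and the CACCC box (CACCC or its reverse GGGTG), the elements that KLF and SP factors are known to bind.
KLF4: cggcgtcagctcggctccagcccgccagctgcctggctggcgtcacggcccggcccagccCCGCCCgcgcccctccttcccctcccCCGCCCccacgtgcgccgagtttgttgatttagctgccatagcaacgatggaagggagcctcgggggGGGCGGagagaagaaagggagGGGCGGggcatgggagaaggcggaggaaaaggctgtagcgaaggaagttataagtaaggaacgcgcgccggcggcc
KLF13: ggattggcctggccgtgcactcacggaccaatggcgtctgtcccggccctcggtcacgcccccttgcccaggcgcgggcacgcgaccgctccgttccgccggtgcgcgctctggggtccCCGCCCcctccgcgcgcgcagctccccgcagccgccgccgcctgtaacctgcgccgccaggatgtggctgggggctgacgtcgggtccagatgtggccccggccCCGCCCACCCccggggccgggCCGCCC

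The KLF4 window held 4 GC boxes and no CACCC box on either strand. The KLF13 window held 3 GC boxes and 1 CACCC box, and 1 of the GC boxes overlapped the CACCC box in the run CCGCCCACCC. Among 35116 promoter windows of this length 42.6% held a GC box, 54.7% a CACCC box and 27.2% both. G and C made up 69.2% of the KLF4 window and 78.8% of the KLF13 window, against a median of 58.0% over all windows. These matches describe the letters only.

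The other 11 KLF genes did not pass in the shared component, and the family median was 0.031. KLF2, KLF4, KLF5, KLF6 and KLF7 are mostly described as activators. Of these KLF5, a factor of proliferating epithelium, had 0.12, 0.14, 0.011 and 0.13 on arrays 1 to 4 (mean 0.10, limma adjusted p = 0.309). KLF2, a factor of quiescent endothelium and T cells, stood at 0.0061, KLF6 at -0.089 and KLF7, a factor of neurons, at -0.087. The KLF7 probe farthest from 0 was negative on all 4 arrays, at -0.31, -0.062, -0.19 and -0.23 (limma adjusted p = 0.128 over probes), and the other 2 KLF7 probes had means of -0.058 and -0.0035.

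Among the KLF genes that recruit SIN3A, as KLF13 does, KLF10, a gene induced by TGF-beta, was at 0.046, KLF11 at 0.031, KLF14 at -0.13 and KLF16 at -0.097. KLF14 was negative on all 4 arrays, from -0.27 on array 1 to -0.041 on array 2 (limma adjusted p = 0.265). KLF13 was thus the 1 gene of these 5 that passed. The repressors KLF3 and KLF12, which recruit CtBP, stood at 0.040 and 0.042, and KLF15 at -0.036. The 6 KLF12 probes lay between -0.067 and 0.22, 5 of them positive and 1 negative. KLF3 had a value of 0.74 on array 1 in 1 of its probes, while the other 3 arrays lay between -0.17 and -0.024 for that probe.

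**Figure D2:**
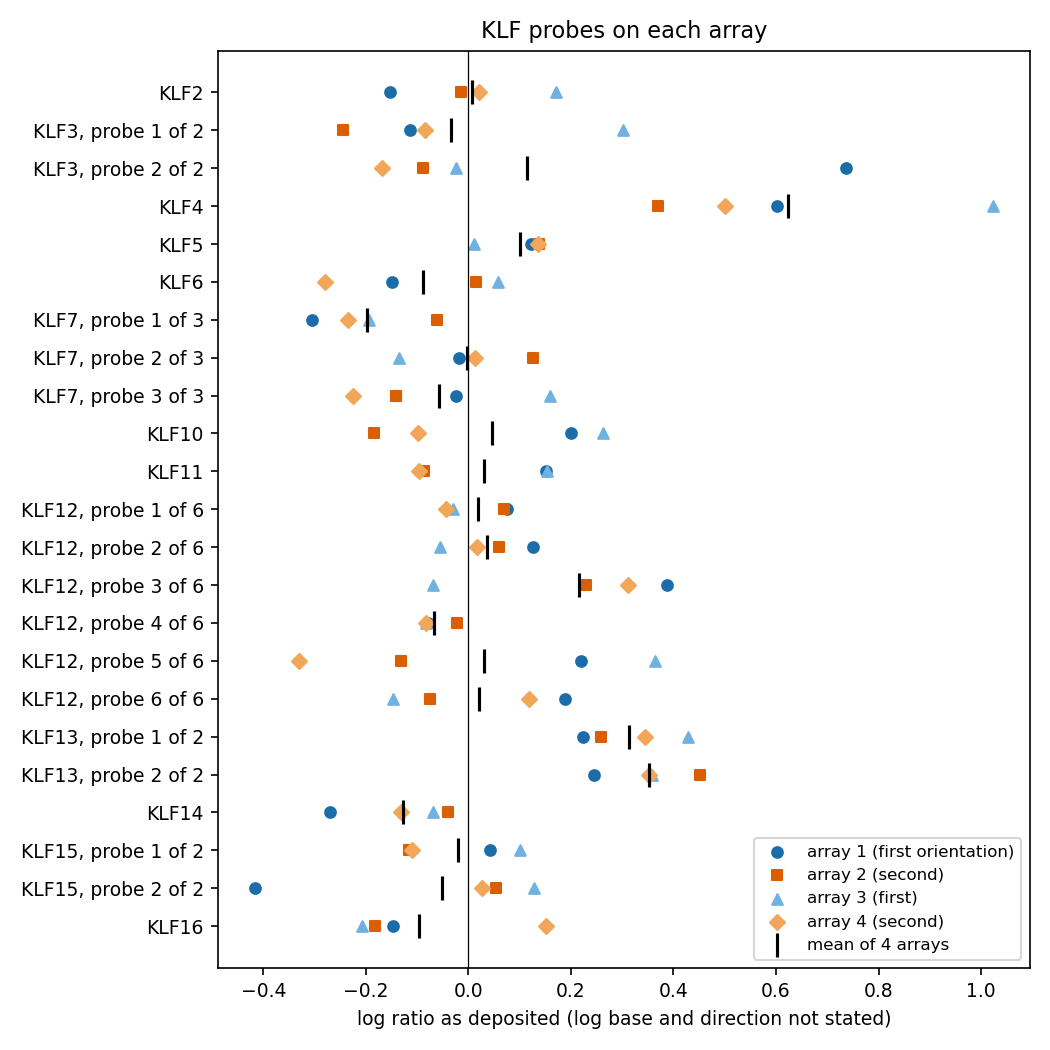
Log ratios (horizontal axis, base and direction not stated) of the 23 KLF probes on each of the 4 arrays, with a black bar for the mean. All values of KLF4 and of both KLF13 probes lie right of 0, from 0.22 upwards, and the probes of the other KLF genes have means between -0.20 and 0.22.

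FOX factors carry a forkhead domain and cover roles from ciliogenesis to metabolism. None of the 27 symbols passed in the shared component, against 3.04% of all genes. An unadjusted p under 0.05 in limma was seen in 2, against 14.6% of all genes. FOXN2 had the largest statistic and was positive on all arrays, at 0.088, 0.077, 0.31 and 0.084 (mean 0.14 ± 0.11, SD, n = 4; limma adjusted p = 0.218). Its array 3 value stood apart from the other 3, which lay between 0.077 and 0.088. Without array 1 the shared component of FOXN2 was 0.20. FOXD1, a factor of kidney stroma, had -0.46, 0.13, -0.19 and -0.17 (limma adjusted p = 0.258), so array 2 went against the other 3.

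FOX factors with a known part in lung were among those that did not pass in the shared component. FOXF1, a factor of lung mesenchyme, was at -0.075 (limma adjusted p = 0.516), with probe means of -0.0077 and -0.14. FOXJ1, the factor of motile cilia, was at 0.015, with -0.032, 0.20, -0.30 and 0.19 on arrays 1 to 4. The alternating component of FOXJ1 was -0.18 (limma adjusted p = 0.0876). FOXP2, FOXP1 and FOXP4, repressors that act together in the airway epithelium, were at -0.0069, -0.025 and 0.026. FOXM1, a factor of the G2 and M phases of the cell cycle, was positive in each of its 3 probes, with probe means from 0.0025 to 0.13, and averaged 0.046 (limma adjusted p = 0.661). The metabolic and stress factors FOXO1 and FOXO3 stood at 0.014 and 0.018.

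SOX factors carry an HMG box that bends DNA. None of 15 passed in the shared component, against 3.04% of all genes, and 1 had an unadjusted p under 0.05 in limma, against 14.6%. Of the 15, 11 were positive and 4 negative, against 6762 and 5721 of all 12483 genes. SOX4, a factor of progenitor cells that is often high in carcinoma, had -0.036, 0.38, -0.046 and 0.18 on arrays 1 to 4 over its 2 probes (mean 0.12 ± 0.21, SD, n = 4; limma adjusted p = 0.277). The 2 values of arrays 2 and 4 were thus high and those of arrays 1 and 3 near 0. SOX9, a factor of the distal lung tip and of cartilage, ranged from -0.22 on array 3 to 0.36 on array 1 (mean 0.059), and SOX17, a factor of endoderm, from -0.35 on array 4 to 0.056 on array 1 (mean -0.12). SOX6, a partner of SOX5 in cartilage, was positive in 4 of its 5 probes and averaged 0.066 (limma adjusted p = 0.514).

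T-box factors had no member past the threshold in the shared component among 12, against 3.04% of all genes. An unadjusted p under 0.05 in limma was seen in 2, against 14.6% of all genes. TBX4, a factor of lung mesenchyme and hindlimb, was positive on all arrays at 0.16, 0.26, 0.025 and 0.065 (mean 0.13 ± 0.11, SD, n = 4; limma adjusted p = 0.28). Without array 3 its shared component was 0.16. Its partner in lung mesenchyme, TBX5, was at -0.018 over 2 probes, and TBX2 and TBX3, which repress senescence genes, at -0.066 and -0.025. TBX19, a factor of the pituitary, was at 0.10 and TBX21, the factor of type 1 helper T cells, at 0.057.

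HOX genes pattern the body axis, and genes of a cluster lie side by side in the order of their paralog numbers. None of 6 HOXB, 7 HOXD and 1 HOXC genes passed in the shared component, against 3.04% of all genes. HOXB6 had -0.31, -0.22, -0.072 and -0.020 on arrays 1 to 4 (mean -0.15 ± 0.13, SD, n = 4; limma adjusted p = 0.239). Without array 3 its shared component was -0.21. HOXB9 had -0.045, -0.13, -0.0081 and -0.20 (mean -0.097; limma adjusted p = 0.316). These were the HOX genes that were negative on all 4 arrays. Their cluster neighbours HOXB3, HOXB4, HOXB5 and HOXB13 had means of 0.026, 0.099, -0.0062 and 0.047. In the HOXD cluster the means were 0.061 for HOXD1, -0.055 for HOXD4, -0.020 for HOXD8, -0.078 for HOXD9, -0.0012 for HOXD10, -0.020 for HOXD11 and 0.053 for HOXD13. HOXD9 had the largest statistic of the cluster, with -0.15, -0.098, 0.15 and -0.21 on arrays 1 to 4 (SD 0.16, n = 4; limma adjusted p = 0.582), so array 3 went against the other 3. HOXD1 was the HOXD gene with a positive value on all 4 arrays, from 0.0042 to 0.17. HOXC11 had -0.22, -0.098, 0.18 and 0.040 (mean -0.023 ± 0.17, SD, n = 4; limma adjusted p = 0.909). The homeodomain partners of HOX proteins lay in the same range, with MEIS1 at 0.024, MEIS2 at 0.050 and PBX2 at -0.035. PBX4 had -0.14, 0.23, 0.019 and 0.15 (mean 0.064 ± 0.16, SD, n = 4; limma adjusted p = 0.579).

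**Figure D3:**
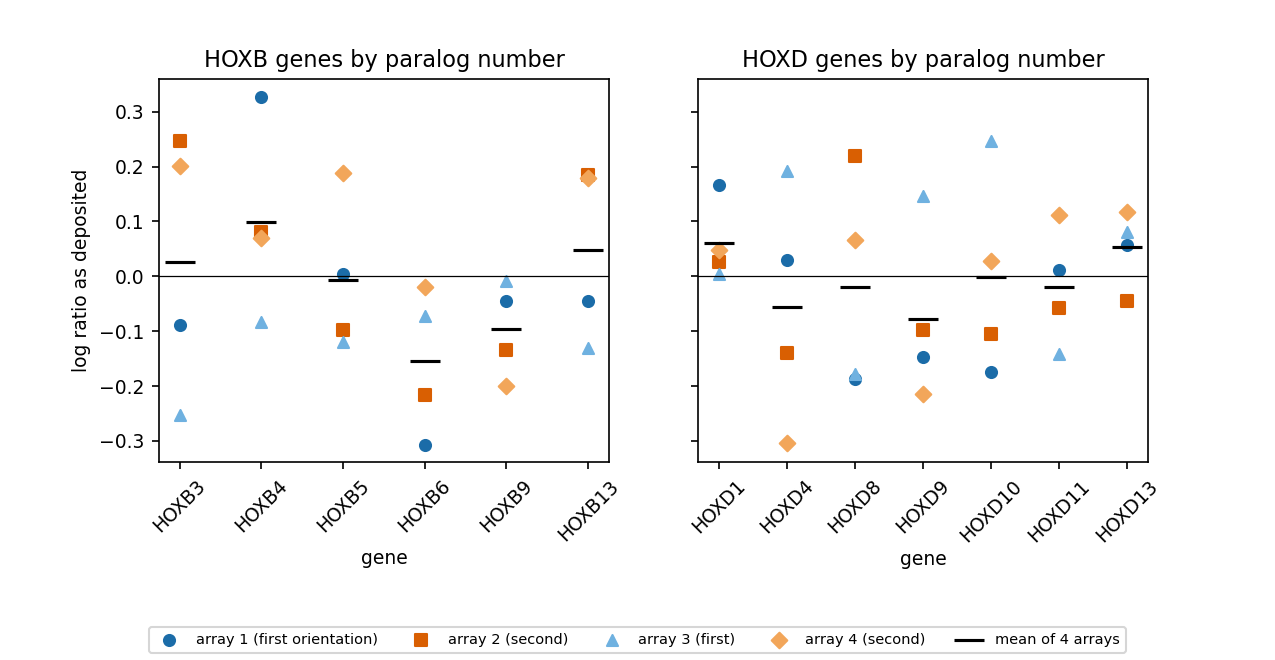
Log ratios (vertical axis, base and direction not stated) of 6 HOXB genes and 7 HOXD genes on each array, in the order of paralog numbers, with a black bar for the mean of 4 arrays. HOXB6 and HOXB9 lie below 0 on all 4 arrays, and HOXB3 changes sign with the dye orientation.

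The remaining families held no member past the threshold in the shared component, against 3.04% of all genes. Among the GATA zinc finger factors GATA2, a factor of blood progenitors, had 0.045, -0.26, -0.11 and -0.14 (mean -0.12 ± 0.12, SD, n = 4; limma adjusted p = 0.3), and GATA1, GATA4 and GATA5 lay between -0.040 and 0.0023. LHX2, a factor of forebrain and hair follicle, had 0.23, 0.084, 0.23 and -0.10 (mean 0.11 ± 0.16, SD, n = 4; limma adjusted p = 0.303), with array 4 alone negative. The 7 PAX genes lay between -0.036 and 0.076, with PAX8, a factor of thyroid and kidney, at -0.025. PAX1, a factor of the sclerotome, was highest, with 0.12, -0.019, 0.18 and 0.029 (SD 0.088, n = 4; limma adjusted p = 0.451). The 6 DLX genes, factors of limb, jaw and forebrain, lay between -0.093 (DLX2) and 0.040 (DLX1). DLX2 had -0.12, -0.075, 0.081 and -0.26 (SD 0.14, n = 4; limma adjusted p = 0.477), with array 3 against the other 3. SIX2, SIX4 and SIX5 lay between -0.038 and 0.0047. SIX5 was negative on all arrays, at -0.088, -0.048, -0.0074 and -0.0028 (mean -0.036 ± 0.040, SD, n = 4; limma adjusted p = 0.751). NKX2-8 had 0.13, 0.039, -0.077 and 0.17 (mean 0.065 ± 0.11, SD, n = 4; limma adjusted p = 0.607). NKX2-5, the heart factor, was at 0.014 and NKX2-1-AS1, the RNA next to the lung factor gene NKX2-1, at -0.075. MSX2, a factor of skull and limb, had 0.032, 0.16, -0.17 and 0.15 (mean 0.042 ± 0.16, SD, n = 4; limma adjusted p = 0.746). HAND2, a factor of heart and limb, had 0.068, -0.081, 0.17 and 0.093 (mean 0.064 ± 0.11, SD, n = 4; limma adjusted p = 0.591). In each of these 2 genes 3 arrays were positive and 1 was negative.

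**Figure D4:**
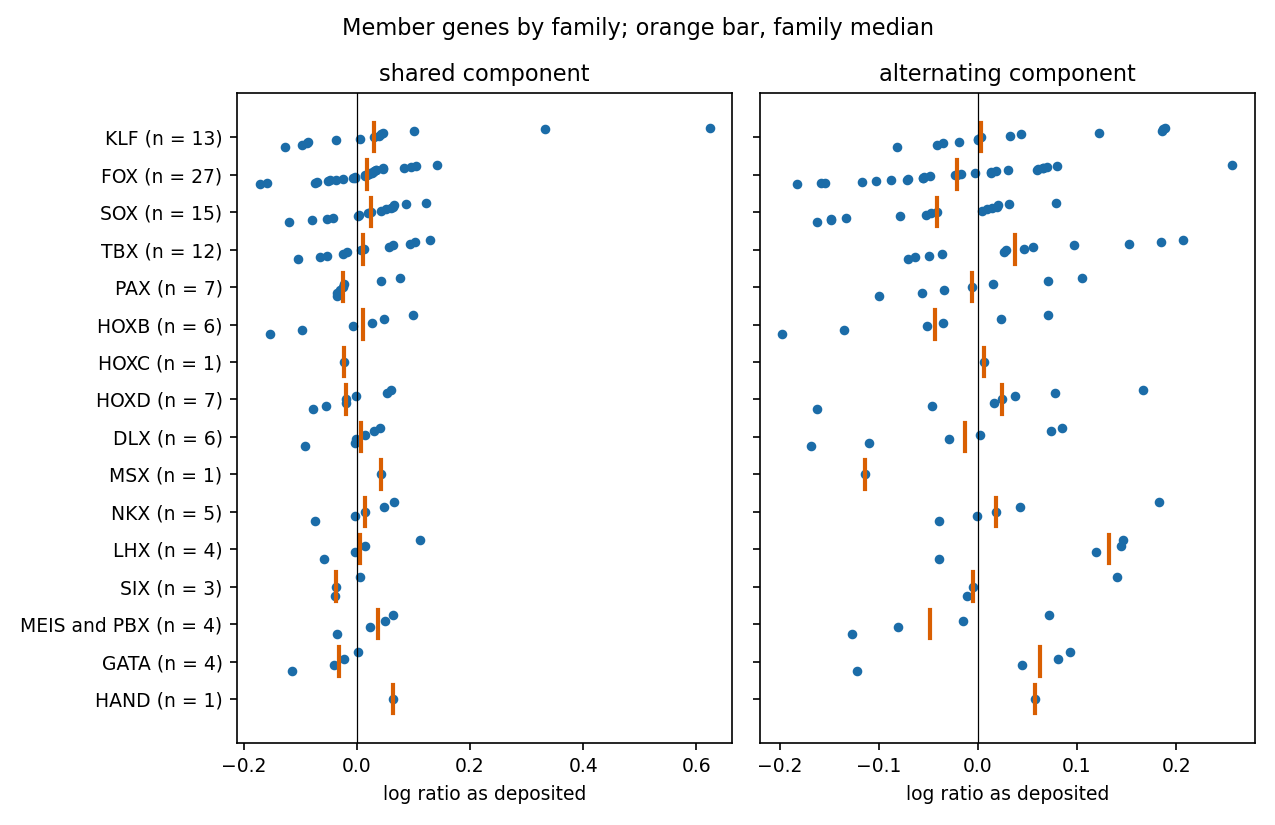
Shared component (left) and alternating component (right) of the 116 member genes by family, as log ratios on the horizontal axes, 1 point per gene, with an orange bar for the family median. Family medians of the shared component lie between -0.036 (SIX2, SIX4 and SIX5) and 0.064 (HAND), and KLF13 and KLF4 are the points right of 0.3.

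In the alternating component 1 of 116 member genes passed, FOXL2, with a positive value (0.862%, against 3.29% of all genes in either direction, 1.9% positive and 1.39% negative). At the probe level 6 of 182 passed (3.3%, against 4.28% of all probes), 3 positive (1.65%, against 2.81%) and 3 negative (1.65%, against 1.48%). In limma 31 member genes (26.7%, against 25.6% of all genes) and 43 member probes (23.6%, against 25.2% of all probes) had an unadjusted p under 0.05. Turned to 1 orientation, the 4 arrays had the same sign in 32 member genes (27.6%, against 28.2% of all genes) and 51 member probes (28%, against 28.8% of all probes). FOXL2, the factor of ovarian granulosa cells, had log ratios of 0.29 and 0.29 on arrays 1 and 3 and of -0.19 and -0.26 on arrays 2 and 4. Turned to 1 sign the values averaged 0.26 ± 0.043 (SD, n = 4; limma adjusted p = 0.0269 over genes). The call was lost without array 2 (limma adjusted p = 0.115) and without array 4 (0.136). Without array 1 the count of called member genes was 24, where 18.4% of all genes passed, without array 3 it was 17, where 12.7% passed, and without array 2 or array 4 it was 0 (with 22 and 16 member genes at an unadjusted p under 0.05 in limma), where 0.312% and 0.553% of all genes passed. The count of called member probes was 16 without array 1, where 7.04% of all probes passed. It was 0 without array 2 or array 4, with 23 and 20 at an unadjusted p under 0.05 in limma, where 0.424% and 0.518% of all probes passed.

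The other 5 probes called in the alternating component belonged to genes with several probes. A SOX5 probe had -0.35 and -0.42 on arrays 1 and 3 and 0.13 and 0.28 on arrays 2 and 4 (turned mean -0.29 ± 0.13, SD, n = 4; limma adjusted p = 0.0258). The other SOX5 probes had the same sign at -0.12 and -0.028. A PAX3 probe had 0.32 and 0.27 on arrays 1 and 3 and -0.27 and -0.20 on arrays 2 and 4 (0.26 ± 0.050, SD, n = 4; limma adjusted p = 0.0297). The other 2 probes of PAX3, a factor of neural crest and muscle precursors, had the opposite sign at -0.16 and -0.20 (limma adjusted p = 0.126 and 0.0545), so the probes of this gene disagreed and its mean was -0.034.

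A KLF12 probe was called at 0.26 ± 0.11 (SD, n = 4; limma adjusted p = 0.0396), while the other 5 KLF12 probes lay between -0.055 and 0.0053. A FOXP4 probe was called at -0.22 ± 0.046 (limma adjusted p = 0.0429), with the other 2 probes at -0.060 and -0.026. A HOXB3 probe was called at -0.23 ± 0.092 (limma adjusted p = 0.0446), and the other HOXB3 probe stood at -0.16 with the same sign (adjusted p = 0.101). Averaged over their probes none of these 5 genes passed, HOXB3 coming closest (-0.20, limma adjusted p = 0.055). Next among genes with 1 probe were KLF10 (0.19, limma adjusted p = 0.0534), TBX1 (0.18, adjusted p = 0.0572), a factor of the pharyngeal arches, and TBX18 (0.21, adjusted p = 0.0587).

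Several probes of 1 gene gave a further measure. Of the 35 member genes with 2 or more probes, 18 had 1 sign in all probes in the shared component and 13 in the alternating component. Among all 5075 genes with 2 or more probes these counts were 2129 and 1983. Among the 20 with exactly 2 probes the signs were equal in 14 in the shared component (70%, against 54.8% of 3108 such genes among all) and in 10 in the alternating component (50%, against 52.2%). KLF13 was the member whose probes all passed. FOXP1 had the most probes, 10, of which 3 were positive and 7 negative in the shared component, between -0.11 and 0.20, and the probe at 0.20 was positive on all 4 arrays (limma adjusted p = 0.117). The 6 FOXO3 probes lay between -0.083 and 0.11. Family members share stretches of sequence in their DNA-binding domains, and whether probes also bound related messages was not tested.

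**Figure D5:**
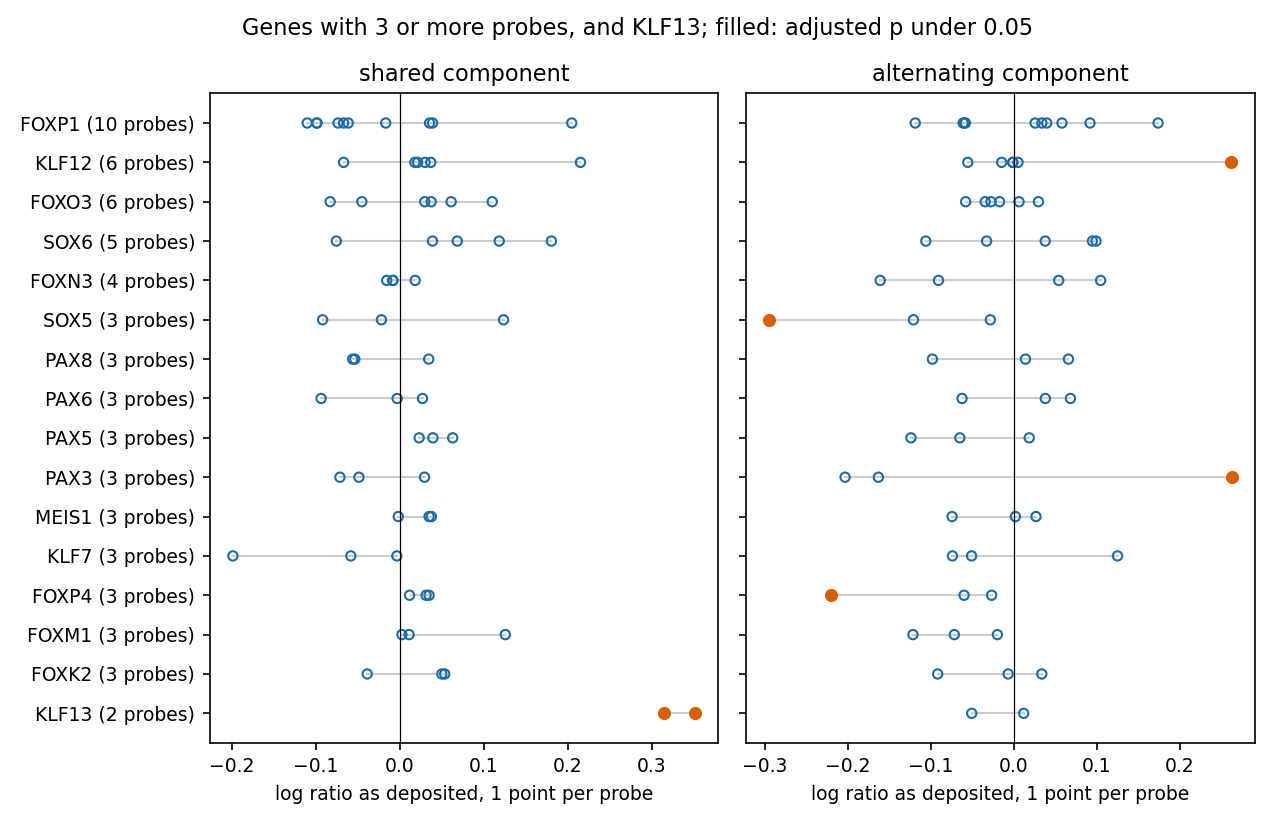
Probe values of the 15 member genes with 3 or more probes, and of KLF13 with 2, in the shared component (left) and the alternating component (right), as log ratios on the horizontal axes. Filled orange points passed an adjusted p of 0.05 in limma: both KLF13 probes on the left, and single probes of KLF12, SOX5, PAX3 and FOXP4 on the right, where the PAX3 probes lie on both sides of 0.

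Taken across genes, which do not count as replicates, arrays sharing an orientation correlated with r = 0.34 (arrays 1 and 3) and 0.52 (arrays 2 and 4), over 116 genes, and the 4 pairs of opposite orientation with r between -0.11 and 0.096. Over all genes the values were 0.48 and 0.58 for the same orientation and between -0.065 and 0.12 for the opposite one. Paired arrays share the dye orientation, whose part in these correlations was not tested.

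Many deposited values were exactly equal between probes of an array. On array 1 80.8% of the member probes had a value that at least 1 other probe also had, against 71.5% of all probes, and on arrays 2 to 4 the shares were 53.3%, 56% and 53.8%, against 51.9%, 55.4% and 52.8% of all probes. All 4 values of the KLF4 probe were unique on their arrays. The KLF13 probes had 2 and 1 values in common with other probes. The KLF2 and KLF6 probes shared their value with other probes on all 4 arrays. On array 1 the KLF6 value stood at 55 probes in all and the HOXB6 value at 40. The HOXD9, DLX2 and FOXD1 probes also shared their value with other probes on all 4 arrays. What made values equal was not tested, and the table holds no intensities.

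Genes that work with these factors were counted as well. Of 42 listed cofactors and binding partners, such as the Groucho proteins TLE1 to TLE5, LIM-domain partners, PKNOX and EYA proteins, CtBP and SIN3A, 33 were measured. None passed in the shared component and 0 had an unadjusted p under 0.05 in limma, against 14.6% of all genes, and their median was -0.0059. In the alternating component 1 of the 33 passed, the LIM-only adaptor LMO1 (-0.26, limma adjusted p = 0.0446), against 3.29% of all genes. There 5 had an unadjusted p under 0.05 in limma, against 25.6% of all genes. Of 63 other developmental factors 43 were measured, with a median of 0.024 in the shared component. In that component 1 passed, against 3.04% of all genes, and 42 did not. This was TFAP2C, a factor of trophoblast and mammary epithelium, at 0.29, 0.15, 0.29 and 0.40 on arrays 1 to 4 (mean 0.28 ± 0.10, SD, n = 4; limma adjusted p = 0.0244). In the alternating component none of the 43 passed, and 10 had an unadjusted p under 0.05 in limma, against 25.6% of all genes.

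Of 32 Polycomb and Trithorax genes, whose products keep developmental genes silent or active, 23 were measured, with a median of 0.015. None passed in the shared component, and 3 had an unadjusted p under 0.05 in limma, against 3.04% and 14.6% of all genes. In the alternating component 1 passed, against 3.29% of all genes. This was ASH2L, a subunit of histone H3 lysine 4 methyltransferases (-0.23, limma adjusted p = 0.0395). There 6 of the 23 had an unadjusted p under 0.05 in limma, against 25.6% of all genes. Among cell type markers in the shared component keratin 8, KRT8 (0.39, limma adjusted p = 0.00698), passed of 6 epithelial genes. NKG7 (-0.26, limma adjusted p = 0.0141) passed of 3 blood cell genes. None of 5 fibroblast and 4 endothelial genes passed in this component, with 1 in each at an unadjusted p under 0.05 in limma. Of all genes 3.04% passed and 14.6% had an unadjusted p under 0.05 in limma. In the alternating component the endothelial receptor gene TEK passed with -0.20 (limma adjusted p = 0.0439) and no other of these markers did, against 3.29% of all genes. Log ratios carry no levels, so whether a marker was expressed could not be read.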

How the data were processed

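Per the submitters' design text, GenePix files went through the authors' ArrayMagic pipeline with VSN, a variance-stabilizing normalization that compresses ratios of dim spots, followed by limma. What was deposited is 1 log ratio per probe and array, its base unstated. Without intensities, dim probes could not be filtered.

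The log ratios were used as deposited. Probes were named through the platform annotation: 20976 of 26629 had 1 symbol, 848 several and 4805 none, and 20963 matched RefSeq genes (GRCh38.p14), with 0 symbols updated. The 12 probes with several symbols, at least 1 of them from these families, were not counted as members. Each probe, and each gene as the mean of its probes, entered a limma model (version 3.58.1, R 4.3.3) of a shared plus an alternating term, on 2 residual degrees of freedom and 7.22 (probes) or 5.89 (genes) prior ones. Tests were two-sided. The fit was tested on simulated data. The number of arrays limits precision. In limma the p-values rest on the residual spread within each dye orientation, which may be technical, moderated across all probes or genes. The SD printed beside a mean also holds the other component, so it is not the spread these p-values use.

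Given in full are members past the threshold and, per family, the member with the largest moderated statistic in the shared component, then clones and HOX clusters. Members and lists were chosen with earlier results of these data known. Plots used matplotlib 3.10.9 (Python 3.11.15).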

Additional observations from a re-analysis of the deposited data

Results flagged for a closer look

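Of 27 named results, 1 had an array far from the other 3. FOXN2 in the shared component stood at 0.313 on array 3, against values between 0.0774 and 0.0884 on the other arrays, so that the gap to the nearest array took up 0.954 of the whole range, above the critical value of Dixon's test for 4 arrays. Chance alone also gives such a gap in some groups, and 1 among 27 is no pattern. With both dye orientations weighted equally, the shared component of FOXN2 was 0.085 without array 3 and 0.20 without array 1.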

How the results depend on the processing

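Median centring, scaling to 1 median absolute deviation, robust moderation (statmod 1.5.0), and array weights left all 4 counts of called members within 1.5 times of the main value, and so did fitting only probes with 1 symbol for the counts of probes. Leaving out an array gave 1 to 5 member probes and 2 to 12 member genes in the shared component, and 0 to 16 and 0 to 24 in the alternating one. Without moderation 0 passed in each of the 4 counts in limma, with 12 and 5 (shared) and 22 and 12 (alternating) member probes and genes at an unadjusted p under 0.05. Shares of all probes and genes without moderation are not given here, so these counts are not a result about the members. In the alternating component 0 member probes and 0 genes passed without the dye term in limma (34 and 24 at an unadjusted p under 0.05, with 0.383% of all probes and 0.0801% of all genes called) and 0 and 0 at a threshold of 0.01 in limma (43 and 31, with 0.0901% and 0.0561% of all called). At 0.1 16 and 16 passed (11.8% of all probes and 11.2% of all genes), after quantile normalization 2 genes (3.56% of all) and with the probe of the largest statistic per gene 11 genes (15.6% of all). Of 270 single values outside the left-out arrays 242 kept their direction and side of the threshold, 28 lost the call and 0 changed sign. Of 108 with an array left out, both dye orientations weighted equally, 82 did so, 20 lost the call, 3 gained one (FOXN2, HOXB6 and TBX4) and 3 changed sign, none of them called: the shared component of HOXC11 ranged from -0.12 to 0.076 and that of MSX2 from -0.0091 to 0.094. The causes were not tested. Fits on 3 arrays have 1 residual degree of freedom. No paired analysis was possible because each array is already a ratio of its 2 cultures and there is 1 group of arrays. With all signs turned round, each count would keep its size with positive and negative exchanged.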

Other observations

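The number of arrays on which a probe had a value equal to that of another probe went with the share of probes called in the shared component. Of the 4846 probes with 4 unique values 8.09% passed in limma, of the 3817 with 1 equal value 2.36%, of the 4189 with 2 equal values 1%, of the 5624 with 3 equal values 0.267% and of the 8153 with 4 equal values 0.135%. The spread of the shared component over these 5 classes was 0.175, 0.0968, 0.0896, 0.0863 and 0.0724 (SD over probes). In the alternating component the shares called were 4.93%, 5.32%, 5.9%, 4.46% and 2.47%. Among the 182 member probes 24 had 4 unique values (13.2%, against 18.2% of all probes), with the KLF4 probe the 1 called in the shared component, and 56 had 4 equal values, of which 0 passed in the shared component in limma. Probes are not independent replicates, and this was seen in the data and not tested.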
